A study of Mus musculus with 27 samples.

Results

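The aminoacyl-tRNA synthetase genes of mouse macrophages were followed through a treatment with lipopolysaccharide (LPS) and with TM7nox, a tanshinone mimic. The genes were taken from the deposited count table as the protein-coding rows whose description names a tRNA synthetase, which gave 42 of 55483 genes. The cytosolic class held 25 of them and the mitochondrial class 17, the latter being those described as mitochondrial or with a symbol ending in ars2. All 42 passed the filter on low counts in every comparison, so none is missing from the counts below. The table uses symbols without a final 1 for most cytosolic enzymes (Aars for alanyl-, Wars for tryptophanyl-tRNA synthetase), and those are kept here. Besides enzymes, the cytosolic class held 4 relatives: the scaffold proteins Aimp1 and Aimp2 and the editing-domain proteins Prorsd1 and Aarsd1.

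All samples were RAW264.7 cells, an established macrophage-like line of mouse, so the groups share 1 genetic background and no primary cells were used. Each sample was kept for 6 h with DMSO, with LPS at 1 µg/ml plus DMSO (the LPS group), or with LPS and TM7nox at 10 µM (LPS+TM7nox). No group received TM7nox without LPS. For each treatment there were 4 libraries of total RNA, 4 of RNA recovered by immunoprecipitation with an antibody to HuR (RIP) and 1 with control IgG, made from replicate 3. HuR, encoded by Elavl1, is a protein that binds U-rich stretches of messenger RNA, and tanshinone mimics are a compound class made to interfere with that binding. Nothing in the labels says that the replicates were separate cultures, so p-values measure the spread between these samples, which may be partly technical.

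Aminoacyl-tRNA synthetases join each amino acid to its tRNA and so supply the ribosome with charged tRNAs. Most animals carry separate nuclear genes for the cytosolic and the mitochondrial enzymes, while Kars and Gars serve both compartments. They fall into 2 structural classes (class I and class II), and 8 cytosolic enzymes sit with Aimp1, Aimp2 and Eef1e1 in the multi-synthetase complex. When amino acids are short or another stress activates an eIF2 alpha kinase, the transcription factor ATF4 is translated and binds C/EBP-ATF composite elements in front of genes for amino acid synthesis, amino acid transport and many cytosolic synthetases. In macrophages LPS and interferons are known to induce Wars.

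Because the results below separate the cytosolic genes into those that rose with TM7nox and those that did not, their promoters are shown with the composite element marked. RefSeq promoter windows of 300 bases, lying mostly upstream of a gene start, were taken from a table of build GRCm38.p6 and placed in GRCm39 by exact match. They were available for 32 of the 42 members (18 cytosolic, 14 mitochondrial). The letters TGATGNAA occurred in the windows of 5 members: Aars, Gars, Iars, Tars and Yars. Each stretch below is 30 bases, 5′ to 3′ on the strand of the gene, with the match in capitals.
Aars: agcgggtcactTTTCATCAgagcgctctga
Gars: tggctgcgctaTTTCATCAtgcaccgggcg
Iars: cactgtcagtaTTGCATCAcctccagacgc
Tars: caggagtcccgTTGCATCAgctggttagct
Yars: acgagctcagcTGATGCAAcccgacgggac
In the mouse genome build GRCm39 these stretches lie at chr8:111760472-111760501 (plus strand) for Aars, chr6:55014945-55014974 (plus strand) for Gars, chr13:49835602-49835631 (plus strand) for Iars, chr15:11399741-11399770 (minus strand) for Tars and chr4:129083688-129083717 (plus strand) for Yars. The matches in Aars, Gars, Iars and Tars were read on the strand opposite to the gene and that in Yars on its own strand. Counted from the gene start of the window, the printed matches began downstream at 10 in Aars, 8 in Iars and 4 in Yars. Those in Gars and Tars began upstream, at -30 and -15. All 5 genes were among the 13 cytosolic members that rose with TM7nox, of which 8 had a window. None of the 10 windowed cytosolic members that were not called and none of the 14 windowed mitochondrial members held the letters, against 3.91% of 32544 windows of all genes. The E-box CACGTG occurred in 3 of the 8 (Aars, Iars and Tars), in 1 of the 10 (Farsb) and in 1 of the 14 (Ears2), against 7.17% of all windows. The interferon-stimulated response element was found in Qars alone (3.45% of all windows), and the antioxidant-response letters TGACNNNGC in 8 members, 3 of them among the 8 with a window that rose (12.4% of all windows). Each motif was searched on both strands without regard to the others, so the same bases can count for more than 1 motif. A match is a description of these letters and not a shown binding site.

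Depth was 2728534 to 28285856 counts in the RNA libraries, 19816312 to 41449233 in RIP and 8873091 to 24513902 in IgG, the DMSO replicate 1 of RNA being the shallowest. Levels are given as CPM, counts divided by a library size scaled over all 27 libraries together by the trimmed mean of M-values (TMM). Of 10 macrophage markers all but Mertk and Cd86 exceeded 10 CPM in every RNA library, while 17 markers of other cell types summed to at most 5.90 CPM, with Epcam, Krt8, Ly6g, Cpa3 and Hbb-bs at 0 in all RNA libraries. The transcript of HuR itself, Elavl1, lay between 74.1 and 127 CPM in RNA, between 60.7 and 90.8 in IgG and between 2083 and 5316 in RIP. Counts from genes of the mitochondrial genome made up 12.1 to 22.4% of RNA libraries and 0.559 to 1.86% of RIP libraries.

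TM7nox on top of LPS raised the total RNA level of 13 of the 25 cytosolic genes and of none of the 17 mitochondrial ones. No gene of either class was called lower by edgeR with all libraries, TMM scaling and no term for the replicate number. Across all 12369 genes tested, 7.37% were called higher and 6.48% lower by edgeR's quasi-likelihood test at an adjusted p under 0.05. The median log2 fold change was 0.66 over the cytosolic class, -0.09 over the mitochondrial class and -0.00 over all genes. In each of the 13 genes every LPS+TM7nox library lay above every LPS library, and groups separated this way in 11.3% of all genes. At an unadjusted p under 0.05 there were 16 cytosolic genes and 1 mitochondrial gene. DESeq2 called 14 cytosolic genes higher and 1, Kars, lower (log2 -0.24, adjusted p = 0.0085), and no mitochondrial gene. In bulk RNA a change in the level per cell and a change in the share of cells that hold a transcript cannot be told apart.

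**Figure D1:**
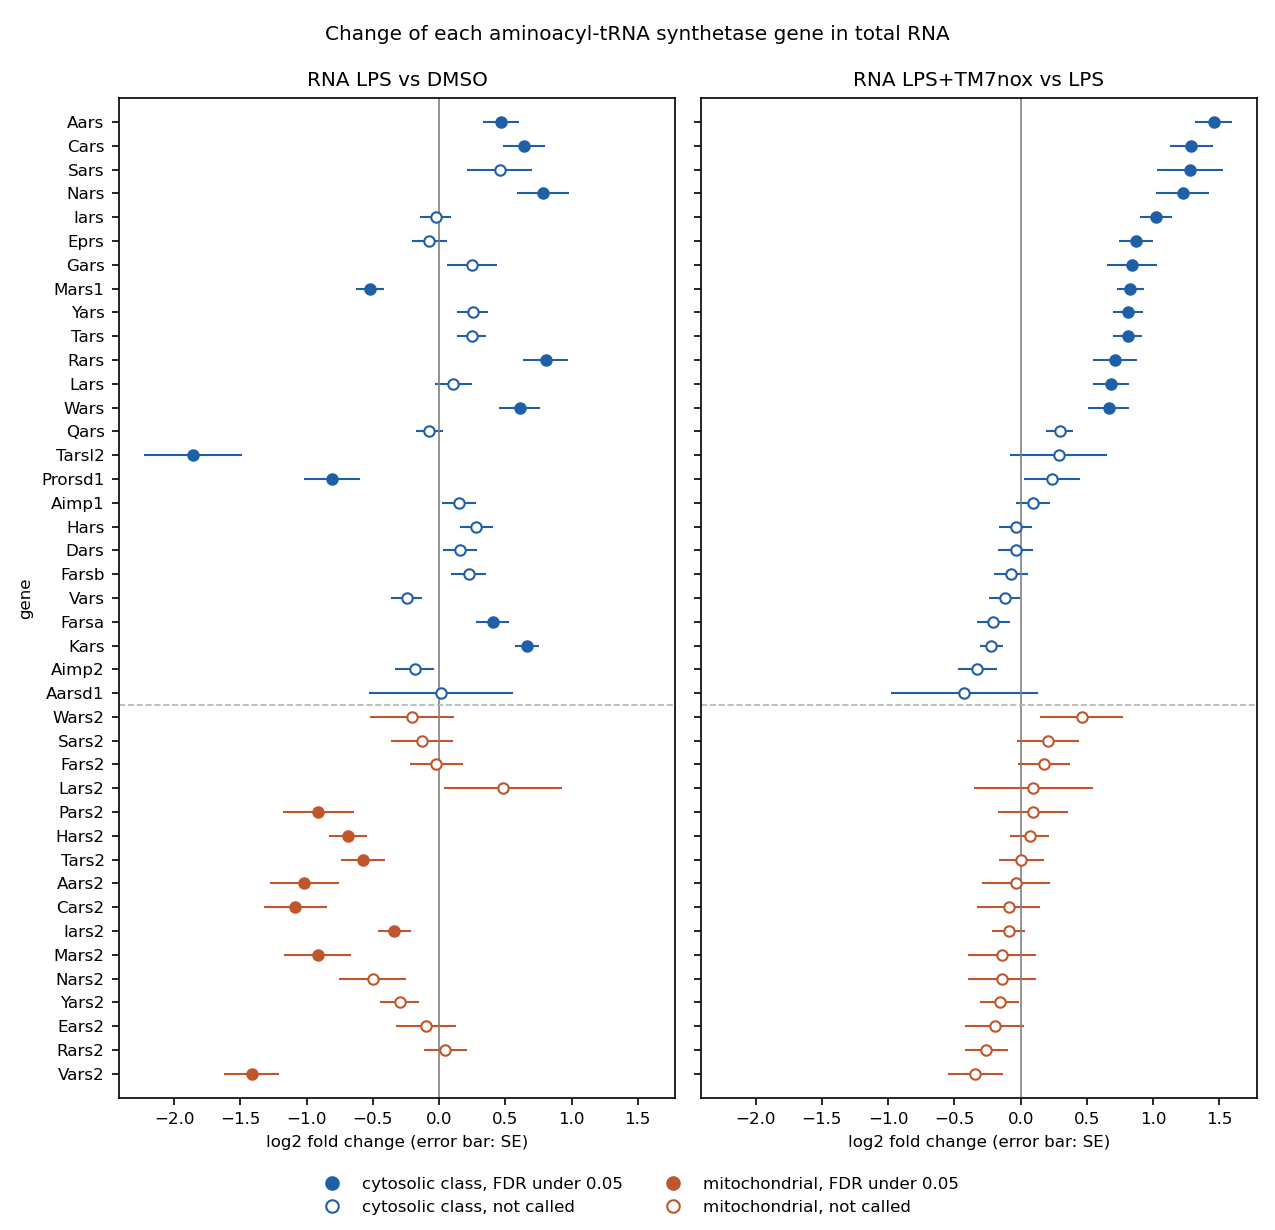
Log2 fold changes with their standard errors (horizontal axis) of 41 genes (vertical axis) in total RNA, for LPS against DMSO (left) and LPS+TM7nox against LPS (right), with filled points called at an adjusted p under 0.05. Right of 0 in the second panel stand 13 filled cytosolic genes, from Wars at 0.66 to Aars at 1.46, and no mitochondrial point is filled there.

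Aars, which charges tRNA with alanine (chromosome 8, 111754391 to 111784296), stood at 97.4, 115, 141 and 154 CPM in the 4 LPS libraries and at 368, 310.1, 366 and 343 in the 4 LPS+TM7nox libraries. The groups did not overlap and the change was 2.74-fold (log2 fold change 1.46, SE 0.14, adjusted p = 1.6e-05). Its canonical transcript shares 22.3% of its 50-base words with Exosc6, which is listed at 0 in all 27 libraries. Exons of Aars and Exosc6 overlap on the same strand over 1326 bases. How reads in that overlap were counted is not given in the sources used here, and their part in the levels was not tested.

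Cars, the cysteinyl enzyme (chromosome 7, 143107440 to 143153828), went from 49.4, 64.4, 72.3 and 85.2 CPM with LPS to 153, 152, 181 and 174 with LPS+TM7nox. Every TM7nox library was above the highest LPS library (log2 fold change 1.29, SE 0.16, adjusted p = 1.3e-04). Sars, which charges tRNA with serine and also prepares the tRNA for selenocysteine (chromosome 3, 108332181 to 108352701), measured 126, 153, 268 and 266 and then 448, 375, 566 and 577 CPM (log2 fold change 1.28, SE 0.25, adjusted p = 0.0033). The 2 higher LPS values of Sars, in replicates 3 and 4, still lay under its lowest TM7nox value.

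Nars, the asparaginyl enzyme (chromosome 18, 64632718 to 64649723), had 145, 178, 261 and 278 CPM with LPS and 425, 409.8, 609 and 559 with LPS+TM7nox, a 2.33-fold difference (log2 fold change 1.22, SE 0.20, adjusted p = 9.4e-04). Gars, which serves cytosol and mitochondria with glycyl-tRNA (chromosome 6, 55014927 to 55061231), measured 135, 168, 209 and 236 and 295, 316, 340.1 and 384 CPM (log2 fold change 0.84, SE 0.19, adjusted p = 0.008). In Nars, Sars and Gars alike the LPS libraries of replicates 3 and 4 exceeded those of replicates 1 and 2, and so did their LPS+TM7nox libraries.

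Among enzymes of the multi-synthetase complex, Iars (isoleucine, chromosome 13, 49835576 to 49887745) measured 90.9, 111, 118 and 121 CPM with LPS and 235, 194, 238 and 226 with LPS+TM7nox (log2 fold change 1.02, SE 0.12, adjusted p = 7.2e-05). Eprs, which joins the glutamyl and prolyl activities in a single protein (chromosome 1, 185095101 to 185161840), measured 225, 224, 292 and 269 and 488, 397, 501 and 459 CPM (log2 fold change 0.87, SE 0.13, adjusted p = 5.1e-04). Neither gene passed for LPS against DMSO (log2 fold changes -0.02 and -0.07). Mars1 (methionine, chromosome 10, 127128344 to 127147776) had 43.1, 47.5, 45.1 and 49.0 CPM with LPS and 91.1, 76.6, 79.2 and 80.3 with LPS+TM7nox (log2 fold change 0.83, SE 0.11, adjusted p = 1.4e-04). Exons of Mars1 overlap those of Ddit3 on the other strand over 3618 bases. Ddit3 rose 7.21-fold in the same comparison, from 19.3, 24.5, 35.8 and 52.0 to 263, 211, 199 and 272 CPM; whether counting used the strand is not given in the sources used here, and the part of Ddit3 reads in Mars1 was not tested.

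The other 5 that rose were Tars (0.81), Yars (0.81), Rars (0.71), Lars (0.68) and Wars (0.66 on the log2 scale). Wars, the tryptophanyl enzyme (chromosome 12, 108825955 to 108860188), measured 59.0, 73.1, 93.8 and 98.1 CPM with LPS and 113, 113, 145 and 140.3 with LPS+TM7nox (log2 fold change 0.66, SE 0.15, adjusted p = 0.0096). Its 2 groups were separated by the gap between 98.1 and 113 CPM.

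**Figure D2:**
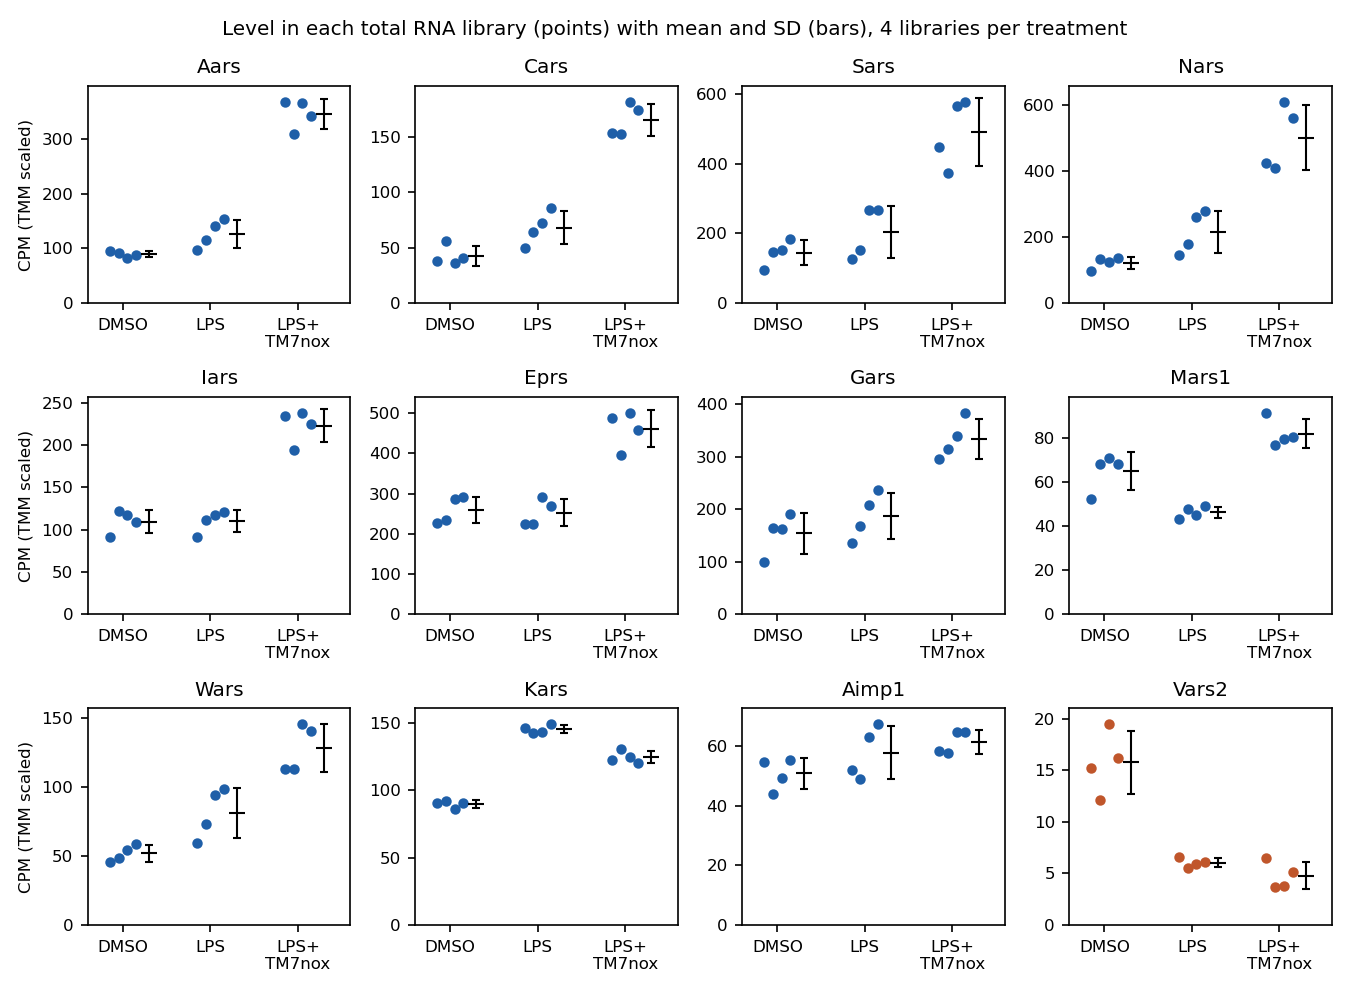
CPM (vertical axis, linear, from 0) in each total RNA library for 12 genes under DMSO, LPS and LPS+TM7nox, each point being a library and each bar the mean with its SD over 4. The 9 panels from Aars to Wars show TM7nox libraries above all LPS libraries, Kars peaks with LPS at 146 ± 2.93 (SD, n = 4), and the mitochondrial Vars2 is highest with DMSO at 15.8 ± 3.02 CPM (SD, n = 4).

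The 12 cytosolic members that did not pass ranged from -0.42 (Aarsd1) to 0.30 (Qars) on the log2 scale. They were the enzymes Dars, Farsa, Farsb, Hars, Kars, Qars, Vars and Tarsl2 and all 4 relatives. Kars measured 147, 143, 143 and 149 CPM with LPS and 122, 131, 125 and 120.1 with LPS+TM7nox, groups that did not overlap (log2 fold change -0.22, SE 0.09, adjusted p = 0.117), as in 10.4% of all genes in the downward direction. Kars passed as lower by DESeq2 (adjusted p = 0.0085) and with replicates 3 and 4 alone (adjusted p = 0.048). With the replicate number as a block, Kars passed as lower (adjusted p = 0.035) and Qars as higher (adjusted p = 0.01), so the cytosolic count became 14 higher and 1 lower. The share of all genes called in that blocked fit is not given here. The 2 subunits of the phenylalanyl enzyme did not pass, at -0.21 for Farsa and -0.07 for Farsb.

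The scaffolds gave 51.8, 48.9, 63.0 and 67.4 CPM with LPS and 58.3, 57.8, 64.8 and 64.9 with LPS+TM7nox for Aimp1 (log2 fold change 0.09, SE 0.13, adjusted p = 0.715). Aimp2 gave 15.3, 15.1, 12.4 and 13.8 and 11.1, 13.4, 10.8 and 9.65 CPM (log2 fold change -0.33, SE 0.15, adjusted p = 0.175). In both genes the groups overlapped. Of the 8 complex enzymes 5 rose (Eprs, Iars, Lars, Mars1 and Rars) and Dars, Kars and Qars did not pass, while 8 of the 12 enzymes outside the complex rose. By structural class, 7 of 9 class I and 5 of 10 class II enzymes rose, with medians of 0.71 and 0.38. Eprs holds an active site of each class and was counted in neither; Tarsl2 was left out of both splits.

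For 14 amino acids a cytosolic gene was paired with a separate mitochondrial gene. Farsa and Farsb with Fars2, and Eprs with Ears2 and Pars2, were left out because they do not pair gene to gene. The cytosolic gene had the larger log2 fold change with TM7nox in 13 of the 14 pairs, the exception being the histidyl pair (Hars -0.04, Hars2 0.07). The median difference within pairs was 0.97 on the log2 scale and the widest was 1.49, between Aars at 1.46 and Aars2 at -0.03. Aars2 stood at 3.21, 2.90, 5.29 and 3.87 CPM with LPS and 5.15, 2.61, 3.99 and 3.19 with LPS+TM7nox, and these ranges overlapped. In the tryptophanyl pair Wars stood at 0.66 and Wars2 at 0.46 on the log2 scale, the latter not passing (adjusted p = 0.398) although its groups did not overlap. The highest value of the mitochondrial class was that of Wars2.

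Summed over the class, the cytosolic genes reached 2069.7, 2288, 2771 and 2872 CPM in the LPS libraries of RNA and 4065, 3775, 4649 and 4463 in those with TM7nox. The mitochondrial genes without Lars2 summed to 176, 170.2, 181 and 183 and 184, 172, 163 and 160.2 CPM, ranges that overlapped. Lars2 was set apart because it varied between replicates of a treatment, with 179.7, 264, 269.8 and 534 CPM with LPS. The highest value of Lars2 in each treatment was that of replicate 4, the library where the noncoding RNA Gm15564 was also highest (2.10, 8.22, 5.29 and 14.9 CPM with LPS), and the part of that RNA was not tested. By library totals without scaling, the cytosolic sum rose from 3036 to 5045 CPM on average, the same direction, and the call of 13 higher and 0 lower was unchanged in number. With replicates 1 and 2 alone 5 passed, and the cytosolic median was 0.66 against 0.60 with replicates 3 and 4 alone.

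**Figure D3:**
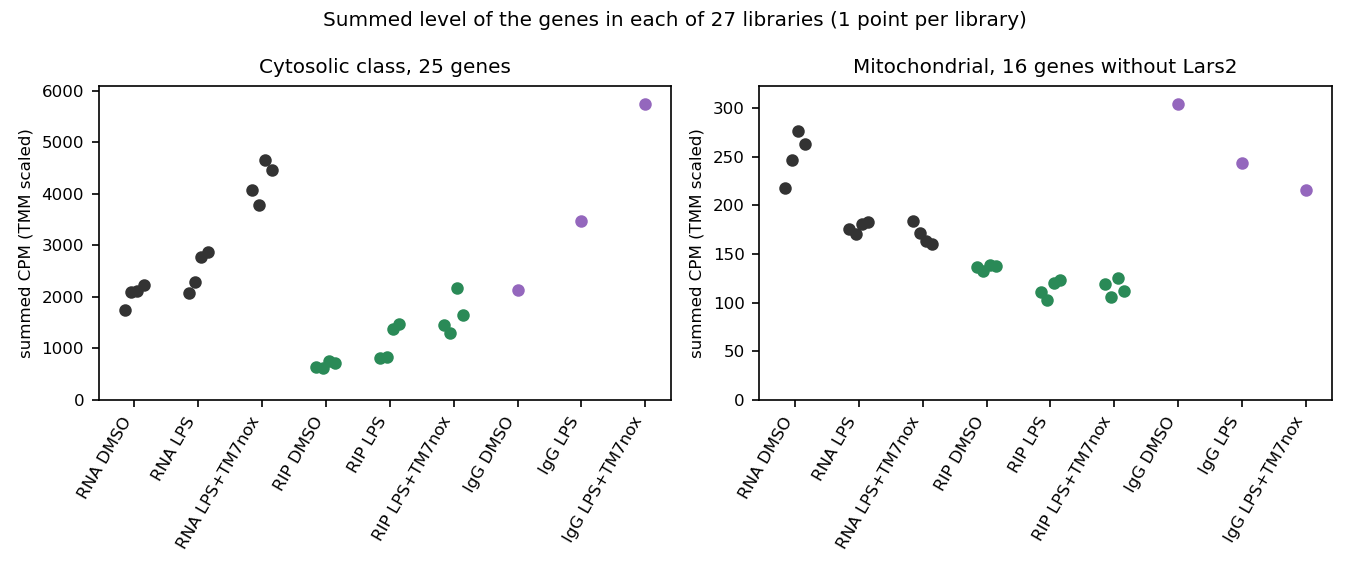
Summed CPM (vertical axis, linear, from 0) of the 25 cytosolic genes (left) and of 16 mitochondrial genes without Lars2 (right) in each of the 27 libraries, 1 point per library, grouped by assay and treatment along the horizontal axis. In RNA, RIP and IgG the cytosolic sum is highest with LPS+TM7nox on average, and the mitochondrial sum is highest with DMSO in each assay.

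Genes that act around the synthetases were counted in the same RNA test, where 7.37% of all genes were called higher and 6.48% lower. Their lists were chosen with earlier results of these data known. Of 20 regulators of the amino acid and unfolded-protein stress response that were tested, 11 rose with TM7nox and none fell (median log2 fold change 1.10). Trib3, a pseudokinase induced by ATF4, rose by 3.39, the stress transcription factor Ddit3 by 2.85 and Ppp1r15a, which directs the dephosphorylation of eIF2 alpha, by 2.50 on the log2 scale. Of 17 amino acid synthesis genes 9 rose and 1 fell (median 0.80). These included Cth, which makes cysteine (1.56), the alanine aminotransferase Gpt2 (1.44) and the asparagine synthetase Asns (1.35), against Shmt1, the cytosolic serine hydroxymethyltransferase (-1.06).

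Of 13 amino acid transport genes 8 rose and 2 fell (median 0.83). The glycine carrier Slc6a9 rose by 3.36, the neutral amino acid carrier Slc1a4 by 2.84 and Slc3a2, the shared heavy chain of several carriers, by 2.30 on the log2 scale, while the cationic carrier Slc7a2 (-1.61) and Slc7a7 (-0.70) fell. Translation factors gave 3 higher of 20 and 0 lower (median 0.01): Eef2k, the kinase of elongation factor 2 (1.66), Eif5 (0.79) and Eif2s2 (0.53). Of 19 genes that modify, export or handle tRNA, scaffolds included, Xpot, the export receptor for tRNA, was the only one called (0.67, median 0.09). Of 10 macrophage markers 4 fell and none rose with TM7nox; their summed level ran from 3358 to 6140 CPM against 4935 to 6899 with LPS. Of the 17 markers of other cell types 2 passed the filter and 1, S100a8, fell with TM7nox (log2 fold change -3.25, adjusted p = 0.0054). The part of these markers in the changes was not tested. For LPS against DMSO the same lists gave 11 higher and 4 lower for stress regulators, 3 and 5 for synthesis, 5 and 3 for transport, 4 and 3 for translation factors and 1 and 6 for tRNA handling. Of the 10 macrophage markers 6 were higher with LPS and 1 lower (median log2 fold change 0.70), and of 17 markers of other cell types 2 passed the filter and both were higher; their part in the LPS changes was not tested. The transcript of Atf4 itself was higher by 1.44 with LPS and by a further 1.13 with TM7nox on the log2 scale; these comparisons share the LPS libraries.

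With LPS against DMSO, 7 cytosolic genes were higher and 3 lower in total RNA (3 higher and 8 lower by library totals without scaling). Of the mitochondrial genes 9 were lower and none higher (11 and none by library totals). Over all genes 20.2% were higher and 21.8% lower, so the 7 of 25 lay near the background and the 9 of 17 above it. The cytosolic median was 0.22 and the mitochondrial median -0.50 on the log2 scale, against -0.04 for all genes. This comparison shares its LPS libraries with the previous one. With the replicate number as a block the counts were 13 cytosolic higher and 4 lower, and 1 mitochondrial higher (Lars2) and 9 lower. The 20.2% and 21.8% are from the fit without the block and are no background for the blocked counts.

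Of the mitochondrial genes, Vars2 (valine, chromosome 17, 35966526 to 35978510) stood at 15.3, 12.2, 19.5 and 16.2 CPM with DMSO and 6.63, 5.58, 5.87 and 6.15 with LPS (log2 fold change -1.41, SE 0.21, adjusted p = 8.1e-05). Every LPS library was under every DMSO library, which held for 18.9% of all genes.

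Cars2 (cysteine) measured 5.94, 8.55, 7.59 and 7.66 CPM with DMSO and 4.53, 3.77, 2.95 and 3.15 with LPS (log2 fold change -1.09, SE 0.24, adjusted p = 0.002). Aars2 (alanine) measured 7.21, 6.13, 9.20 and 7.66 and 3.21, 2.90, 5.29 and 3.87 CPM (log2 fold change -1.02, SE 0.26, adjusted p = 0.0053). Mars2 (methionine) measured 5.94, 9.37, 11.003 and 7.96 and 2.74, 5.48, 5.05 and 5.52 CPM (log2 fold change -0.92, SE 0.25, adjusted p = 0.0096). These 3 genes also separated fully between the treatments. Hars2, Iars2, Pars2 and Tars2 fell as well, by 0.69, 0.34, 0.91 and 0.57 on the log2 scale.

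In the cytosolic class the strongest change with LPS was in Tarsl2, a second threonyl enzyme gene, at 11.7, 10.6, 7.72 and 9.66 CPM with DMSO and 4.62, 3.35, 1.41 and 1.72 with LPS (log2 fold change -1.86, SE 0.37, adjusted p = 9.4e-04). Its main counterpart Tars did not pass (0.25). Mars1 (-0.52) and Prorsd1 (-0.81) were the other 2 that fell.

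Kars measured 90.5, 92.5, 85.8 and 90.3 CPM with DMSO and 147, 143, 143 and 149 with LPS (log2 fold change 0.66, SE 0.09, adjusted p = 3.2e-05), so its LPS libraries lay above those of both other treatments. Groups were separate upward between DMSO and LPS in 19.8% of all genes. Wars measured 45.4, 48.7, 54.4 and 58.8 CPM with DMSO and 59.0, 73.1, 93.8 and 98.1 with LPS (log2 fold change 0.61, SE 0.15, adjusted p = 0.0053). Aars measured 94.8, 91.7, 83.0 and 88.1 and 97.4, 115, 141 and 154 CPM (log2 fold change 0.47, SE 0.14, adjusted p = 0.012), and without LPS replicate 4 it no longer passed (log2 0.37, adjusted p = 0.050). Cars (0.64, with overlapping groups), Farsa (0.41), Nars (0.79) and Rars (0.80) also rose. The scaffolds did not pass, with Aimp1 at 54.7, 43.9, 49.4 and 55.3 CPM under DMSO (0.15) and Aimp2 at 12.9, 16.8, 14.4 and 18.3 (-0.18).

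These directions depend on the scaling for the cytosolic genes. By library totals without scaling the cytosolic median was -0.06, the mitochondrial median -0.78, and the median of all genes moved to -0.32 with 1629 genes higher and 4250 lower. The cytosolic sum rose from 2046 to 2500.1 CPM on average on the scaled values and went from 3112 to 3036 on library totals. Aars (log2 0.17, adjusted p = 0.350) and Wars (log2 0.31, adjusted p = 0.084) no longer passed on library totals, while Aimp1 changed sign (log2 -0.15, adjusted p = 0.412) and Aimp2 passed as lower (log2 -0.46, adjusted p = 0.027). Aimp1 passed as higher with replicates 3 and 4 alone (log2 0.32, adjusted p = 0.0075). With replicates 1 and 2 alone 3 members passed and with replicates 3 and 4 alone 29 did.

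Set against DMSO, LPS+TM7nox left 14 cytosolic genes higher and 4 lower, and 10 mitochondrial genes lower and none higher, where 23.7% of all genes were higher and 23.7% lower (47.4% in all). With the replicate number as a block the counts were 18 higher and 4 lower, and 1 mitochondrial higher and 11 lower, with no share of all genes given for that fit. Nars had the largest rise (log2 fold change 2.01, SE 0.20, adjusted p = 2.0e-06), from 96.0, 133, 123 and 136 CPM with DMSO. The cytosolic genes that were lower were Aimp2 (-0.51), Prorsd1 (-0.57), Tarsl2 (-1.57) and Vars (-0.36). By library totals without scaling the counts were 12 higher and 4 lower, and 13 mitochondrial lower, with 1857 genes higher and 4552 lower in all.

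Levels can be compared between genes only per length. Per kilobase of the canonical transcript, Gars was highest at 63.4 ± 16.02 CPM, followed by Lars2 at 55.7 ± 34.6 and Rars at 48.4 ± 6.07 (SD, n = 4) in DMSO libraries. Aarsd1 was lowest at 0.513 ± 0.372 CPM per kilobase, and Nars2 stood at 0.703 ± 0.265 (SD, n = 4). Exons of Aarsd1 overlap those of Gm27029 on the same strand over 1425 bases. Whether reads there were left uncounted was not tested, so its level may be set too low.

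The RNA recovered with HuR was then examined. Within the RIP libraries TM7nox against LPS gave 5 cytosolic genes higher (Aars, Cars, Eprs, Iars and Lars), 1 lower (Aimp2), and of the mitochondrial genes 1 lower and none higher. Over 13614 genes tested 8.66% were higher and 7.62% lower. The cytosolic median was 0.42, the mitochondrial median 0.00 and the median of all genes -0.03 on the log2 scale. All 5 that were higher in RIP were among the 13 that rose in total RNA. Levels within RIP were not corrected for the level in total RNA, and the share of all genes called in both was not counted.

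Aars in RIP measured 26.9, 33.2, 57.1 and 66.9 CPM with LPS and 103, 88.4, 151 and 110.0 with LPS+TM7nox (log2 fold change 1.26, SE 0.25, adjusted p = 0.0025), without overlap, as in 10.4% of all genes. Cars in RIP measured 18.4, 21.8, 36.8 and 41.1 and 46.1, 47.0, 71.9 and 57.3 CPM (log2 fold change 0.87, SE 0.25, adjusted p = 0.024). The call for Cars was lost without LPS replicate 1 (log2 0.73, adjusted p = 0.067) or without LPS replicate 2 (log2 0.78, adjusted p = 0.054). It was also lost without LPS+TM7nox replicate 3 (log2 0.74, adjusted p = 0.071) or with replicates 3 and 4 alone (log2 0.72, adjusted p = 0.052).

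Aimp2 in RIP measured 6.34, 7.20, 5.59 and 6.08 CPM with LPS and 3.52, 2.71, 4.71 and 1.53 with LPS+TM7nox (log2 fold change -1.03, SE 0.26, adjusted p = 0.012), all TM7nox libraries being lower. It did not pass with replicates 3 and 4 alone (log2 -0.85, adjusted p = 0.185). Exons of Aimp2 overlap those of Eif2ak1 and Pms2 on the other strand. For Aimp2 the groups did not overlap, as in 8.29% of all genes.

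The RIP count depended on how replicates were treated. With the replicate number as a block, 14 cytosolic genes were higher and 3 lower and 1 mitochondrial gene was higher and 2 lower. Sars (adjusted p = 1.1e-04) and Nars (adjusted p = 6.1e-04) then passed. The 8.66% and 7.62% of all genes are from the fit without the block and are no background for these counts. The LPS libraries split by replicate: the cytosolic sum was 805, 829, 1377 and 1472 CPM in replicates 1 to 4 of LPS and 1458, 1286, 2159 and 1642 in those of LPS+TM7nox. The count of members called was 4 without LPS replicate 1 or without LPS+TM7nox replicate 3, and 13 without LPS replicate 4.

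**Figure D4:**
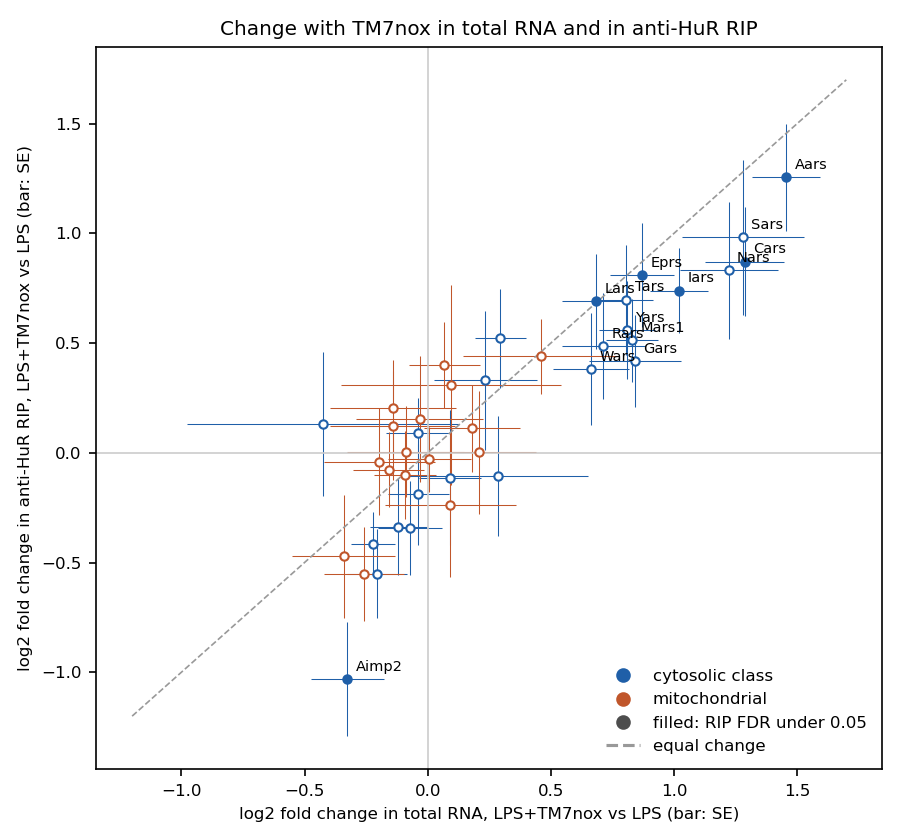
Log2 fold change of LPS+TM7nox against LPS in total RNA (horizontal axis) and in anti-HuR RIP (vertical axis) for 41 genes, with standard errors as bars, the dashed line marking equal change and filled points passing the test in RIP. The 13 genes that rose in RNA all lie to the upper right, from Wars at 0.38 to Aars at 1.26 in RIP, while Aimp2 lies lowest at -1.03.

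LPS against DMSO gave 16 cytosolic genes higher and 2 lower in RIP, and 7 mitochondrial genes lower and none higher, against 23.5% of all genes higher and 21.2% lower (44.7% in all). Nars in RIP measured 30.6, 30.6, 40.0 and 37.7 CPM with DMSO and 49.6, 59.4, 133 and 135 with LPS (log2 fold change 1.41, SE 0.32, adjusted p = 0.002), and did not pass on library totals (log2 0.79, adjusted p = 0.051). Rars, the arginyl enzyme (chromosome 11, 35699207 to 35725375), measured 20.8, 21.2, 24.3 and 23.8 and 39.9, 41.5, 68.6 and 80.9 CPM (log2 fold change 1.33, SE 0.25, adjusted p = 3.4e-04). In both genes the groups were separate, as in 21.6% of all genes upward.

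Mars2 in RIP measured 6.47, 9.23, 9.90 and 8.24 CPM with DMSO and 3.52, 2.94, 3.99 and 3.42 with LPS (log2 fold change -1.31, SE 0.21, adjusted p = 1.1e-04). The lowest value belonged to Aarsd1, at 4.40, 4.33, 5.07 and 5.22 and 1.43, 1.47, 0.777 and 0.869 CPM (log2 fold change -2.07, SE 0.31, adjusted p = 5.2e-05). In both genes every LPS library lay under every DMSO library, as in 20.1% of all genes, and Aarsd1 had only 15 to 31 counts in the LPS libraries of RIP. All 7 cytosolic genes that rose with LPS in RNA (Aars, Cars, Farsa, Kars, Nars, Rars and Wars) rose in RIP too, which was 43.8% of the 16. Here too the share of all genes called in both assays was not counted.

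By library totals without scaling this RIP result turned to 1 cytosolic gene higher and 5 lower and 13 mitochondrial lower, with a median of -0.63 over all genes, of which 1292 were higher and 6412 lower. Leaving out LPS replicate 3 reduced the members called from 25 to 14. LPS+TM7nox against DMSO in RIP gave 17 cytosolic higher and 3 lower (Aarsd1, Aimp2 and Tarsl2) and 6 mitochondrial lower, with Nars at 2.25, Aars at 2.19, Sars at 1.95 and Aarsd1 at -1.94 on the log2 scale. The 3 lower cytosolic genes had separate groups, as 19.8% of all genes did downward. Of all genes 25.1% were higher and 23% lower (48% in all), and by library totals without scaling the members gave 9 higher and 4 lower in the cytosolic class and 14 lower in the mitochondrial class (1450 higher and 6566 lower of all genes).

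Relative to total RNA of the same treatment, nearly all cytosolic synthetase transcripts were depleted from the HuR RIP. In DMSO 23 of 25 were lower and 1 higher, in LPS 22 lower and 0 higher, and in LPS+TM7nox 23 lower and 1 higher, against 33.2%, 30.7% and 34.6% of all 14311 genes called lower. Higher were 36.9%, 32.8% and 35.1% of all genes, which made 70.2%, 63.5% and 69.7% called in all. The cytosolic median log2 ratio was -1.50, -1.21 and -1.58 in the 3 treatments, where that of all genes was 0.04, -0.06 and -0.09. The mitochondrial class was less low, with medians of -0.87, -0.75 and -0.76, and 9, 11 and 9 of 17 lower with 1 higher each time (Cars2). The difference between the classes was not tested. Other lists were also low in DMSO: 8 of 10 macrophage markers were lower and 0 higher (median -1.64). Genes that handle tRNA, scaffolds included, gave 13 lower and 3 higher of 19 (-1.14), and amino acid synthesis 9 and 4 of 17 (-1.18). Translation factors gave 12 and 7 of 20 (-0.79), stress regulators 8 and 5 of 20 (-0.50) and transport genes 4 and 5 of 13 (0.19).

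Of the lowest members, Aimp1 had RNA levels of 54.7, 43.9, 49.4 and 55.3 CPM and RIP levels of 7.04, 7.11, 9.59 and 12.4 in DMSO (log2 fold change -2.38, SE 0.26, adjusted p = 1.0e-08). Rars had 83.7, 109, 107 and 111 CPM in RNA and 20.8, 21.2, 24.3 and 23.8 in RIP of DMSO cells (log2 fold change -2.09, SE 0.25, adjusted p = 3.8e-08), and Tars 113, 140.1, 106 and 124 and 23.8, 27.3, 35.3 and 28.3 CPM (log2 fold change -1.97, SE 0.22, adjusted p = 1.1e-08). No RIP library of these 3 genes reached the level of any RNA library in DMSO. Such separation downward held for 30.1%, 28% and 30.4% of all genes in DMSO, LPS and LPS+TM7nox.

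Aars, the gene with the largest rise under TM7nox, had the fourth-lowest mean ratio over the treatments (-1.64), after Aimp1 (-2.0), Rars (-1.89) and Tars (-1.82). It measured 94.8, 91.7, 83.0 and 88.1 CPM in RNA and 20.8, 23.2, 26.1 and 24.6 in RIP of DMSO cells. Its ratio was -1.80, -1.47 and -1.65 in DMSO, LPS and LPS+TM7nox.

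**Figure D5:**
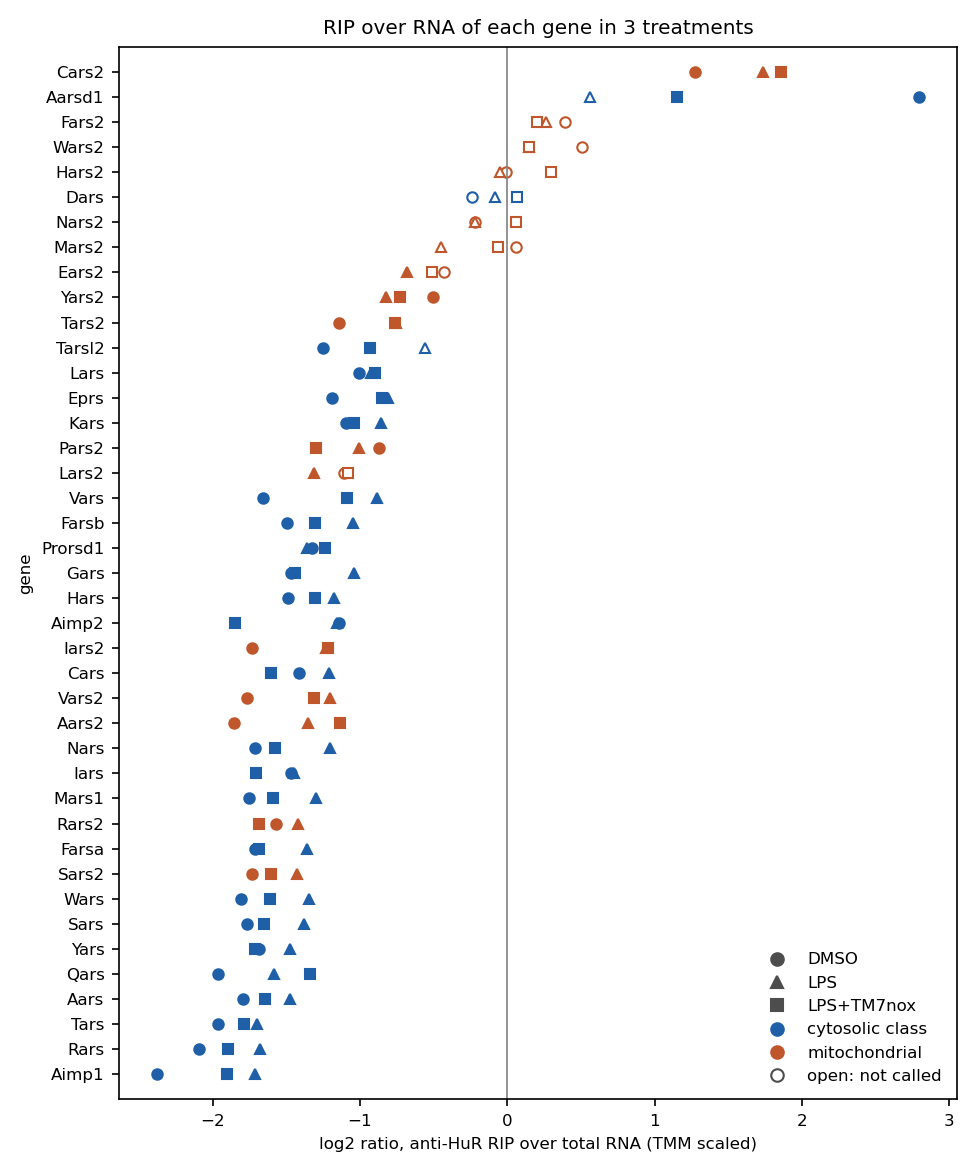
Log2 ratio of anti-HuR RIP over total RNA (horizontal axis) for each of 41 genes (vertical axis, ordered by the mean over treatments) in DMSO, LPS and LPS+TM7nox, with filled symbols passing the test. The cytosolic genes called lower lie between -2.38 and -0.81, and Cars2 and Aarsd1 lie to the right of 0 in all 3 treatments.

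Cars2 had the highest mean ratio over the 3 treatments (1.62). Its RNA levels in LPS were 4.53, 3.77, 2.95 and 3.15 CPM and its RIP levels 10.6, 11.5, 11.4 and 14.1, with no overlap (log2 fold change 1.73, SE 0.22, adjusted p = 1.2e-07). The ratio was 1.27 in DMSO and 1.86 in LPS+TM7nox, both past the test. Cars2 (chromosome 8, 11558417 to 11600875) has the longest 3′ untranslated region of the members after Mars2, at 5697 bases, and its exons overlap those of Naxd on the other strand over 4080 bases. Its cytosolic counterpart Cars lay at -1.42, -1.21 and -1.61, the widest gap of the 14 pairs.

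Aarsd1 gave 1.696, 0.927, 0.193 and 0.657 CPM in RNA and 4.40, 4.33, 5.07 and 5.22 in RIP of DMSO cells (log2 fold change 2.79, SE 0.44, adjusted p = 3.2e-06). Its groups were separate upward in DMSO, as in 32.9% of all genes. In LPS it did not pass (0.56, adjusted p = 0.251), and in LPS+TM7nox it passed (1.15, adjusted p = 0.021). In LPS+TM7nox it did not pass without RNA replicate 3 (log2 0.91, adjusted p = 0.082), RIP replicate 1 (log2 0.96, adjusted p = 0.086) or RIP replicate 4 (log2 1.03, adjusted p = 0.060). There it also did not pass without the filter on low counts (log2 0.96, adjusted p = 0.107), with replicates 1 and 2 alone (log2 0.84, adjusted p = 0.263) or on library totals (log2 0.17, adjusted p = 0.749). These values rest on 6 to 36 counts per RNA library. Aarsd1 shares 73.1% of its 50-base words with Gm27029, whose exons overlap its own on the same strand over 1425 bases. Fars2 (phenylalanine) at 0.39, 0.27 and 0.20 and Wars2 at 0.50, 0.15 and 0.15 came next and did not pass in any treatment with all libraries and TMM scaling. In DMSO both were called higher by DESeq2 (log2 ratio 0.56, adjusted p = 0.015 for Fars2 and log2 ratio 0.69, adjusted p = 0.0056 for Wars2) and with RLE scaling (log2 ratio 0.56, adjusted p = 0.019 and log2 ratio 0.70, adjusted p = 0.015). Fars2 also passed there without RIP replicate 4 (log2 ratio 0.52, adjusted p = 0.046) and with replicates 1 and 2 alone (log2 ratio 0.79, adjusted p = 0.04). Wars2 passed in DMSO without RNA replicate 2 (log2 ratio 0.75, adjusted p = 0.029) and with replicates 3 and 4 alone (log2 ratio 0.54, adjusted p = 0.016). On library totals both lay below 0 in all 3 treatments and were called lower in LPS and LPS+TM7nox: Fars2 gave log2 -0.73, adjusted p = 0.0027 and log2 -0.76, adjusted p = 0.0018, and Wars2 log2 -0.84, adjusted p = 0.0054 and log2 -0.83, adjusted p = 0.0055. In DMSO cells Fars2 measured 6.57, 6.90, 7.95 and 8.55 CPM in RNA and 11.5, 10.4, 8.44 and 6.53 in RIP, and Wars2 1.48, 10.8, 7.30 and 8.05 and 7.42, 10.3, 10.4 and 10.95 CPM.

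Eef1e1, the third scaffold of the multi-synthetase complex, is not described as a tRNA synthetase and was named after its values were seen. It measured 28.8, 45.2, 40.1 and 33.0 CPM in RNA of DMSO cells, 259.9, 272, 260.3 and 156 in RIP and 20.2 in IgG, a log2 ratio of RIP over RNA of 2.79 (adjusted p = 3.6e-11). Its partners lay on the other side, Aimp1 at -2.38 and Aimp2 at -1.14. The ratio of Eef1e1 was 2.61 with LPS and 3.02 with LPS+TM7nox.

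Against the IgG libraries, with treatment as a term, 23 cytosolic genes were lower and 1 higher in RIP, and 11 mitochondrial genes were lower and 1 higher, where 34.1% of all 14973 genes were lower and 33.8% higher. The members above IgG were Aarsd1 (log2 fold change 1.97, SE 0.42, adjusted p = 3.7e-04) and Cars2 (log2 fold change 1.60, SE 0.27, adjusted p = 2.3e-05). Cars2 had 9.15, 3.58 and 1.63 CPM in the IgG libraries of DMSO, LPS and LPS+TM7nox. The lowest against IgG were Rars (-2.32), Iars (-2.19) and Sars (-2.15), and Fars2 was at -0.09 and did not pass (adjusted p = 0.668), but passed as lower on library totals (log2 -1.12, adjusted p = 1.3e-05).

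The IgG libraries, which have no replicate, followed the order seen in RNA: the cytosolic sum was 2135 CPM with DMSO, 3469 with LPS and 5744 with LPS+TM7nox. Aars there went from 90.9 over 210.2 to 500.4 CPM, Rars from 118 over 245 to 449 and Sars from 173 over 339 to 722. The RIP libraries of LPS+TM7nox measured 69.0, 58.9, 125 and 80.4 CPM for Rars, 67.9, 60.6, 89.7 and 60.8 for Iars (IgG 359) and 134, 104, 227 and 178 for Sars. For these 3 genes, named because they were lowest against IgG, every RIP library lay under the IgG library of its treatment. The share of all genes for which this held was not counted. By library totals without scaling, Aarsd1 no longer passed against IgG (log2 0.94, adjusted p = 0.062), and all genes split into 2896 higher and 8345 lower.

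Whether the treatments changed the ratio of RIP over RNA was tested as an interaction. No member passed for LPS against DMSO or for LPS+TM7nox against LPS, where 0.0559% and 0.00699% of all genes did (0.014% higher and 0.0419% lower in the first). At an unadjusted p under 0.05 the first held Aarsd1 (-2.23), Vars (0.77) and 1 mitochondrial gene, and the second Aimp2 (-0.69) and 1 mitochondrial gene. With the replicate number as a block, Aarsd1 (adjusted p = 0.041) and 1 mitochondrial gene passed for LPS against DMSO, DESeq2 also called 2 members there, and both tools called 0 for TM7nox. For Aars the change of the ratio with TM7nox was -0.18 (SE 0.30) and for Iars -0.26 (SE 0.25). Simulated counts at the same library sizes recovered 59% of log2 changes of 1 and 100% of changes of 2 in this test. All genes were drawn with the same fixed spread, without pairing of replicates, and only well-counted genes were changed. Smaller changes, or changes in noisier or low-count members, may therefore not be detectable.

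By library totals the RIP over RNA ratios of all genes had medians of -0.72, -1.06 and -1.07 in DMSO, LPS and LPS+TM7nox, and the cytosolic class -2.29, -2.19 and -2.55, with 24 of 25 lower each time. The genes called then split into 3765 higher and 7096 lower in DMSO, 2828 and 8110 in LPS, and 3310 and 7879 in LPS+TM7nox. Fars2, Wars2 and, in LPS, Aarsd1 turned below 0 under that scaling, and Fars2 and Wars2 were called lower in LPS and LPS+TM7nox, whereas Cars2 stayed above 0.

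The 3′ untranslated regions, where HuR is known to bind, were described by class, with no test. Their median length was 493 bases over the cytosolic class and 1524 over the mitochondrial class, against 1354 for 10996 coding genes with a measured region. The median number of UUUUU runs was 1, 6 and 6 in the same order, and of AUUUA 1, 1 and 2. Across the 42 genes the number of UUUUU runs had a Spearman rho of 0.28 with the mean log2 ratio of RIP over RNA, 0.11 within the cytosolic and 0.22 within the mitochondrial class, against 0.55 across all coding genes; genes are not independent replicates and these share their libraries. Mars2 carried the most UUUUU runs, 76 in 9470 bases, and lay at 0.06, -0.45 and -0.06, while Aarsd1 had none in 225 bases.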

How the data were processed

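The authors deposited 1 table of raw read counts for 55483 Ensembl genes in 27 libraries, not normalized. FastQC 0.11.9, STAR, HTSeq, DESeq2 and the build GRCm39 are named in the submitters' processing notes, with no roles; the library kit keeps strand, per the labels' protocols, but whether counting used it is not given in the sources used here. Libraries were grouped by the labels. The members and all gene lists were chosen with earlier results of these data known.

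Counts were tested per comparison with edgeR 4.0.16 (R 4.3.3): filterByExpr with a minimum count of 10, TMM scaling, robust quasi-likelihood F-test, Benjamini-Hochberg adjustment over all genes, threshold 0.05. RNA and RIP treatments were fitted per assay over all 3 groups. RIP over RNA and its change used 24 libraries, and RIP over IgG had treatment as a term. Percentages of all genes called are from these fits, without a replicate block. Alternatives were DESeq2 1.42.0, RLE scaling, no filter, a replicate block, each library left out, replicates 1 and 2 or 3 and 4 alone, and library totals without scaling, the last chosen after seeing the data. Same-numbered libraries of an assay or of matched treatments deviated together (36 pairs, correlations 0.194 to 0.543), so the numbers pair samples; no replicates were duplicates (chi-square per gene 38.0 to 213). Values in every library are given for the 8 largest called changes with TM7nox and 6 with LPS in RNA, 4 each in RIP, the 4 highest and lowest ratios of RIP over RNA, 3 over IgG, and for Wars, Aars, Kars, Aimp1 and Aimp2; where these repeat, values stand once or are summarised. From related lists the 3 largest called changes each way are named. Counts simulated at the RNA library sizes recovered 97% of log2 changes of 1 for TM7nox against LPS, with 6 false calls among 12369 genes. That simulation gave every gene the same fixed spread and changed only well-counted genes, so real recovery may be lower. Genes were matched to GENCODE M39 by Ensembl number (51731 of 55483, all members), and promoter windows came from RefSeq and were placed in GRCm39 by exact sequence. Values of 1 mitochondrial member, which is counted but not plotted by itself, and 1 further promoter match are not reported here. Reads carry no stated molecular identifiers.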

Additional observations from a re-analysis of the deposited data

Results flagged for a closer look

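For the 23 members with values in every library, 138 groups of 4 libraries were examined for a library far from the other 3, and 5 were found, where chance gives about 1 in 20. Rars in DMSO replicate 1 of RNA (83.7 CPM) and Mars1 in the same library (52.4 CPM) lay below the other 3 DMSO libraries. That library was the shallowest, with 2728534 counts. Mars2 in LPS replicate 1 of RNA was lowest at 2.74 CPM, Gars in DMSO replicate 2 of RIP at 43.8 CPM, and Fars2 in LPS+TM7nox replicate 4 of RIP at 8.01 CPM.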

How the results depend on the processing

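Taking TM7nox against LPS in RNA, 13 members were called and leaving out any library kept the count at 13 to 13, while replicates 1 and 2 alone gave 5. For LPS against DMSO in RNA the count was 19 (16 to 23 with a library left out), 3 with replicates 1 and 2 alone and 29 with replicates 3 and 4 alone. LPS+TM7nox against DMSO gave 28 (25 to 28) and 15 with replicates 1 and 2. In RIP, LPS against DMSO gave 25 (14 to 23) and 7 with replicates 1 and 2, and TM7nox against LPS gave 7 (4 to 13), 13 by DESeq2, 20 with the replicate number as a block and 2 with replicates 3 and 4. The interaction for LPS went from 0 (0 to 1) to 2 by DESeq2 and to 2 with the replicate block; that for TM7nox was 0 (0 to 0). With a library left out the other counts ran from 23 to 26 for LPS+TM7nox against DMSO in RIP, 34 to 37, 31 to 35 and 33 to 35 for RIP over RNA in DMSO, LPS and LPS+TM7nox, and 34 to 37 for RIP over IgG. On library totals the cytosolic sums were 3112, 3036 and 5045 CPM in RNA (DMSO, LPS, LPS+TM7nox) and 685 and 965 in RIP (LPS, LPS+TM7nox), and the mitochondrial sums with Lars2 706 in RNA of DMSO and 149 and 163 in RIP. Of the results for single members, 947 kept direction and call, 27 lost the call, 14 gained it and 17 changed sign. Those that changed sign on library totals were Aarsd1 in RIP over RNA of LPS (-0.45), Aimp1 in RNA for LPS (-0.15), and RIP over RNA in DMSO, LPS and LPS+TM7nox of Fars2 (-0.37, -0.73, -0.76) and Wars2 (-0.20, -0.84, -0.83), each called lower in LPS and LPS+TM7nox. With replicates 3 and 4 alone Fars2 gave -0.078, -0.054 and -0.22 in the same order. Aimp2 in RNA for LPS gave 0.031 with replicates 1 and 2, and Wars2 in RIP over RNA of LPS+TM7nox -0.014 without the filter. Fars2 in RIP over IgG gave 0.040 by DESeq2, 0.038 by RLE and 0.025 without the filter and -1.12 (called lower) on library totals, and ran from -0.174 to 0.018 with a library left out, above 0 without LPS+TM7nox replicate 4 of RIP. The cause of these shifts was not tested. The replicate block gave 34 for LPS+TM7nox against DMSO in RNA and 28 for LPS against DMSO in RIP. Aarsd1 rests on 6 to 36 counts per RNA library.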
